A study of Drosophila melanogaster with 12 samples.

Results

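Snmp1, Snmp2, ATP8B and ppk25 are 4 genes, of 15682 counted in every library, whose membrane proteins are needed for or linked to the pheromone responses of Drosophila melanogaster. They were taken by name, with no measured value in the rule, and all 4 were found in the count files. Their messenger RNA was measured by RNA-seq in 12 samples of antennal tissue in 4 groups of 3. Adult antennae came from control animals (w1118, labelled wild-type) and from amos mutants (amos3), collected 0 to 4 h after eclosion with about 300 antennae per sample. Antennal discs, the larval primordia of the antennae, were cut away from the eye discs of the same control and mutant strains in the third larval instar, with 50 discs per sample. All animals were kept at 22 °C, and both sexes were pooled in every sample. The labels do not say which cultures or parents the samples came from, so p-values measure only the spread between these samples.

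Pheromones such as 11-cis-vaccenyl acetate reach sensory neurons inside hair-like sensilla, where binding proteins secreted by support cells carry them to receptors in the neuron's ciliary membrane. Snmp1 and Snmp2 encode sensory neuron membrane proteins of the CD36 family, scavenger receptor relatives that handle lipids. Snmp1 is needed for the response of Or67d neurons to that pheromone, and Snmp2 is known from support cells. ATP8B is a flippase, an ATPase that moves phospholipids between membrane leaflets, and is required for the sensitivity of several classes of Or neurons. ppk25 is a subunit of a sodium channel of the DEG/ENaC family that amplifies the responses of Or47b and Ir84a neurons. The proneural gene amos specifies the sensilla of Or neurons. The amos mutant antenna therefore lacks most Or neurons with their support cells and keeps the Ir neurons of coeloconic sensilla and of the sacculus. In such bulk samples, fewer cells of a type and less RNA per cell cannot be told apart.

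By the Ensembl gene models of BDGP6.54, Snmp1 (FBgn0260004) lies on the minus strand of 3R from 21165167 to 21168205, with 2 transcripts and 2280 bp of exons. Snmp2 (FBgn0035815) lies on the minus strand of 3L from 7733250 to 7743041, with 3 transcripts and 2837 bp of exons. ATP8B (FBgn0037989) lies on the minus strand of 3R from 12068375 to 12090612, and its 7 transcripts cover 7379 bp of exons. ppk25 (FBgn0053349) lies on the plus strand of 2R from 6950385 to 6952158, with 1 transcript of 6 exons and 1362 bp. No exon of the 4 genes overlaps an exon of another gene in these models. The span of Snmp1 overlaps that of SNF4Agamma on the opposite strand, Snmp2 overlaps CG32373 in the same way, and ppk25 sits inside introns of CheB42c and mim. Whether the counting used strand is not given in the sources used here, so reads of introns on the opposite strand could not be separated from these genes.

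Control adult libraries held 25150198 to 25721392 reads on genes and amos adult libraries 36396746 to 50252338. The disc libraries held 26796503 to 27661261 reads for controls and 39247300 to 43984887 for mutants, so every mutant library was deeper than every control library of its stage. A floor of 3 reads corresponds to 0.0597 to 0.119 CPM over the adult libraries, CPM being a gene's share of the reads on genes scaled to 1000000 reads. It covers counting error only because PCR copies are not independent molecules. The mutated gene amos had 1 to 2 reads in control adults, 0 in amos adults, 0 to 2 in control discs and 0 to 3 in amos discs, too few to check the genotypes. Orco, the coreceptor of Or neurons, marked the adult tissue and the genotype instead. It stood at 69637 to 79720 reads in control adults and 2194 to 5785 reads in amos adults. Discs held eye markers in every library, with a sum over 7 genes of 342 to 442 CPM in controls and 228 to 289 CPM in mutants. Control disc 2 stood apart by its fat body markers (sum over 5 genes 2099 CPM, against 22.2 and 88.5 CPM in the other two control discs) and control disc 5 by its muscle markers (847 CPM, against 118 and 97.1 CPM).

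The comparison of adult antennae asked how each gene differed between the control and amos strains. The study's methods describe no back-crossing for these samples, so strain background and the loss of Or sensilla cannot be told apart. Snmp1, Snmp2 and ATP8B were lower in amos antennae, where they kept 40.8%, 39.5% and 25.4% of the control level, and ppk25 was 11.6-fold higher. In edgeR's quasi-likelihood test, 3 members passed as lower and 1 as higher, while over all 9724 genes tested 24.4% passed as lower and 22.7% as higher at an adjusted p under 0.05. With 47% of all genes called, a call alone sets no gene apart, and the sizes below carry the description. By size, ppk25 ranked 90 of 9724 in the order of increase. In the order of decrease ATP8B ranked 339, Snmp2 578 and Snmp1 604.

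Snmp1 was the most abundant of the members. Control adult samples 5, 6 and 7 had 52604, 52211 and 51864 reads, or 2048, 2030 and 2062 CPM, and amos adult samples 1, 2 and 3 had 32234, 42576 and 31204 reads, or 886, 847 and 817 CPM. The groups did not overlap, and both were tight, at 2047 ± 16.2 CPM against 850 ± 34.2 CPM (mean ± SD, n = 3 each). The log2 fold change was -1.29 (SE 0.070, adjusted p = 5.94e-06, edgeR). SNF4Agamma, the AMP-activated kinase subunit on the opposite strand, did not share the fall, with 186 ± 2.92 CPM in controls and 195 ± 26.6 CPM in mutants (SD, n = 3 each).

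Snmp2, the second gene of the pair, was far less abundant and more variable among mutants. Its control samples had 1529, 1439 and 1356 reads (59.5, 55.9 and 53.9 CPM) and its amos samples 1152, 1048 and 611 reads (31.7, 20.9 and 16.0 CPM). The highest mutant sample lay below the lowest control sample, and the mutants ranged from 28.3% to 56.1% of the control mean. The log2 fold change was -1.34 (SE 0.21, adjusted p = 0.00129, edgeR), with 56.5 ± 2.84 CPM in controls and 22.8 ± 8.01 CPM in mutants (SD, n = 3 each). The opposite-strand neighbour CG32373 was at 2.94 ± 0.121 and 3.34 ± 1.14 CPM (SD, n = 3 each) and did not pass the test.

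ATP8B fell the most of the 3. Reads in control samples were 11028, 10798 and 11346 (429, 420 and 451 CPM), and in amos samples 3155, 6224 and 4758 (86.7, 124 and 125 CPM). Every mutant sample lay far below every control sample, at 20.0% to 28.8% of the control mean. The log2 fold change was -1.98 (SE 0.16, adjusted p = 4.11e-05, edgeR).

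ppk25 moved the other way. Control samples had 120, 109 and 82 reads (4.67, 4.24 and 3.26 CPM) and amos samples 1654, 2658 and 1704 reads (45.4, 52.9 and 44.6 CPM). The mutant samples stood at 1100% to 1304% of the control mean, with no overlap. The log2 fold change was 3.53 (SE 0.14, adjusted p = 1.44e-06, edgeR).

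For each of the 4 members, a 2-sided exact permutation test of log2 CPM gave p = 0.1, which is as low as 3 against 3 can reach. All 4 adult calls were kept when any single library was left out and under every other scaling, filter and tool tried. Leaving out libraries in turn moved the log2 fold change of Snmp1 between -1.30 and -1.26, of Snmp2 between -1.60 and -1.13, of ATP8B between -2.06 and -1.79 and of ppk25 between 3.40 and 3.64.

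**Figure D1:**
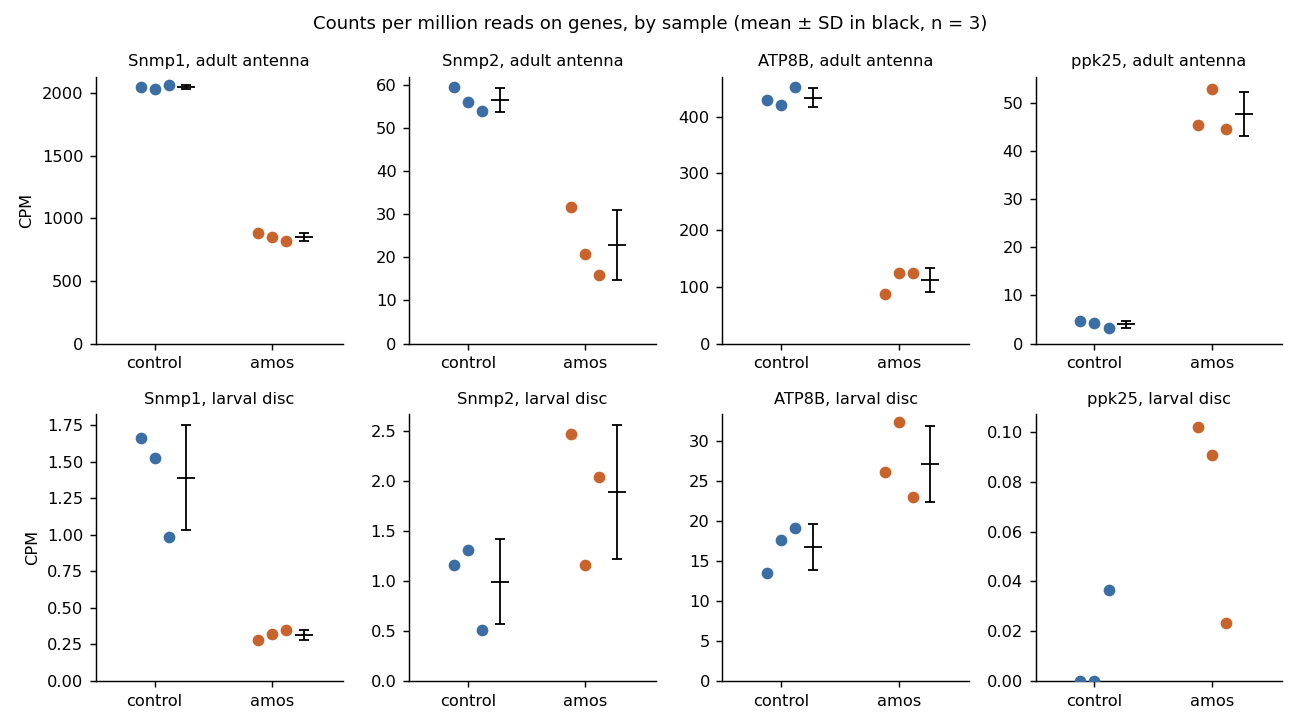
CPM of Snmp1, Snmp2, ATP8B and ppk25 (vertical axes, linear from 0) in every sample of control and amos adult antennae (upper row) and larval discs (lower row). Points are samples and black bars the mean ± SD (n = 3 each), not drawn for ppk25 in discs, where 2 control samples are at 0. In adults the groups of every gene are separate, with ppk25 at 44.6 to 52.9 CPM in mutants against 3.26 to 4.67 CPM in controls.

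CheB42c, whose introns hold ppk25, was also higher in amos antennae. It had 200 to 556 reads in control adults and 1143 to 2888 reads in amos adults, a log2 fold change of 1.54 (SE 0.44, adjusted p = 0.0213, edgeR). The increase of ppk25 was larger and its mutant samples closer together, at 47.7 ± 4.55 CPM against 49.8 ± 26.1 CPM for CheB42c (SD, n = 3 each). mim, the other gene around ppk25, did not pass the test (log2 fold change -0.22, adjusted p = 0.27, edgeR). The part of CheB42c reads in the count of ppk25 was not tested.

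The members' known partners in Or neurons were lower in amos antennae. All 6 Or pheromone receptors tested passed as lower, with a median log2 fold change of -8.27 against -0.0036 over all genes tested. The smallest decrease among them was that of Or65c (log2 fold change -2.11, SE 0.32, adjusted p = 0.00125, edgeR), close to that of ATP8B. Or67d, the receptor for 11-cis-vaccenyl acetate, went from 984 to 1189 reads in control samples to 0 to 9 reads in mutant samples (log2 fold change -9.15). Or47b, whose neurons the study tested with palmitoleic acid, went from 3198 to 3467 reads to 10 to 38 reads (log2 fold change -8.15). Or88a, whose neurons were tested there with methyl palmitate, went from 745 to 839 reads to 0 to 11 reads (log2 fold change -8.31). In the same libraries Orco fell by 5.06 and lush, the binding protein for 11-cis-vaccenyl acetate, fell by 6.36 on the log2 scale. Of the 6 genes listed as active around the receptors, 5 were lower and 1 was higher, the exception being Est-6, an esterase of odorant esters (log2 fold change 3.70).

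Genes of the neurons that remain were higher. Of 13 genes of the Ir subsystem, 12 were higher and 0 lower, with a median log2 fold change of 1.43. Ir84a, the receptor of the other neuron class in which ppk25 acts, had 338 to 365 reads in control samples and 2429 to 3067 reads in mutant samples, a log2 fold change of 2.24 (SE 0.092, adjusted p = 1.59e-06, edgeR). The groups of Ir84a did not overlap, and its increase of 4.73-fold was smaller than the 11.6-fold increase of ppk25. Of 2 courtship factors listed, 1 was lower, fru (log2 fold change -1.40, adjusted p = 3.4e-05, edgeR). Reads of fru are not particular to mature neurons, with 118 to 381 CPM in control discs and 71.4 to 73.5 CPM in control adults.

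**Figure D2:**
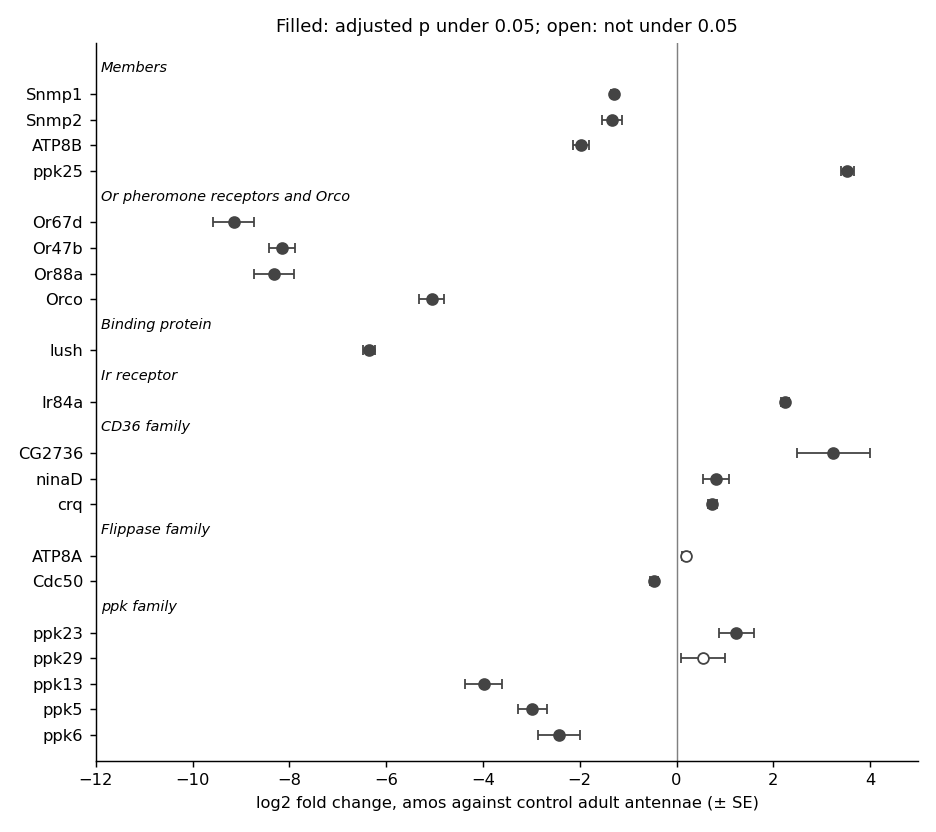
Log2 fold change of amos against control adult antennae (horizontal axis, ± SE) for the 4 members, their known partners and named relatives. Filled points passed an adjusted p under 0.05 in edgeR's quasi-likelihood test and open points did not. Snmp1, Snmp2 and ATP8B lie between -1.29 and -1.98, against -5.06 for Orco and -8.15 to -9.15 for the 3 Or receptors drawn, and ppk25 lies at 3.53 beyond Ir84a at 2.24.

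Ratios within a library do not depend on how libraries are scaled. Reads of Snmp1 per read of Orco were 0.660 to 0.745 in control adults and 7.36 to 14.2 in amos adults, a 14.2-fold difference in the geometric mean. The same ratio differed 13.3-fold for Snmp2, 8.67-fold for ATP8B and 404-fold for ppk25, each higher in mutants with no overlap between the groups. Among the members, the ratio of Snmp1 to Snmp2 overlapped between the groups (34.4 to 38.2 in controls, 28.0 to 51.1 in mutants), and so did that of Snmp2 to ATP8B (0.120 to 0.139 and 0.128 to 0.365). Snmp1 to ATP8B did not overlap, at 4.57 to 4.84 in controls and 6.56 to 10.2 in mutants. The 3 ratios to ppk25 were all separate, and the ratio of ATP8B to ppk25 went from between 91.9 and 138 to between 1.91 and 2.79. Over the 10 ratios examined, 8 had an exact permutation p of 0.1 (0.125 after Benjamini-Hochberg adjustment), the smallest this design allows, while Snmp1 to Snmp2 had an exact p of 0.7 and Snmp2 to ATP8B of 0.3.

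**Figure D3:**
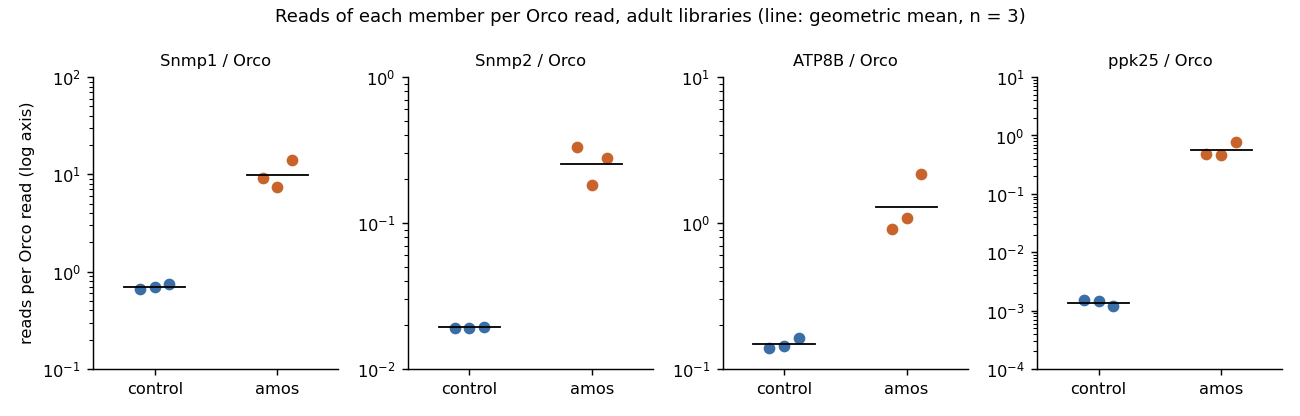
Reads of each member per read of Orco in the same library (vertical axes, logarithmic) in control and amos adult antennae. Points are samples and lines geometric means (n = 3 each). All mutant samples are above all control samples, from 0.660 to 0.745 up to 7.36 to 14.2 for Snmp1.

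Relatives of the members were counted by family. Over all 9724 genes tested in adults, 22.7% passed as higher and 24.4% as lower. Of 12 other CD36 family genes matched, 11 were tested in adults, 5 were higher, 0 were lower, and the median log2 fold change was 0.27. CG2736 had 33 reads over the 3 control samples and 507 over the 3 mutant samples (log2 fold change 3.24, SE 0.75, adjusted p = 0.00921, edgeR). ninaD, a receptor for carotenoid uptake, was higher by 0.81 and crq, which serves the uptake of dying cells, by 0.74 on the log2 scale. The number of higher CD36 genes was 7 with total count scaling and 8 with scaling on ribosomal protein genes, and it was 0 lower in each. These scalings raised the log2 fold change of the median gene by 0.024 and 0.25. The share of all genes passing as higher under them is not given here, so the larger counts are not read as a family result.

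Of 6 genes of the flippase family, 5 were tested, and the only call was Cdc50, the partner subunit of flippases, lower like ATP8B, at 185 ± 9.60 CPM in controls and 136 ± 5.17 CPM in mutants (SD, n = 3 each). Its log2 fold change of -0.47 (adjusted p = 0.002, edgeR) did not pass with scaling on ribosomal protein genes (-0.22, adjusted p = 0.219). ATP8A, another flippase, was at 330 ± 6.72 CPM in controls and 386 ± 26.2 CPM in mutants (SD, n = 3 each). Its log2 fold change of 0.20 did not pass (adjusted p = 0.0869, edgeR) and passed as higher with total count scaling (adjusted p = 0.0416) and with ribosomal protein scaling (0.46, adjusted p = 0.0266).

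Of 29 other ppk genes matched, 13 had enough reads in adults, with 4 higher (ppk26, ppk23, ppk15 and ppk10), 4 lower and a median log2 fold change of -0.21. Beside the 22.7% higher and 24.4% lower over all genes tested, these counts set the family apart in neither direction. ppk23, which works with ppk25 in pheromone-sensing taste neurons of the leg, was at 7.51 to 17.1 CPM in control samples and 18.0 to 44.6 CPM in mutant samples (log2 fold change 1.24, SE 0.37, adjusted p = 0.0251, edgeR). ppk29, the other partner there, overlapped between the groups with 33 to 74 and 53 to 180 reads and did not pass (log2 fold change 0.55, adjusted p = 0.356, edgeR). The 3 largest changes among these 13 were decreases, of ppk13 (log2 fold change -3.98), ppk5 (-2.98) and ppk6 (-2.42). ppk25 thus had the largest increase among the ppk genes tested, ahead of ppk26 (log2 fold change 2.07).

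Markers of cell types also differed between the adult groups, where 22.7% of 9724 genes tested passed as higher and 24.4% as lower. The sum of 5 neuronal markers was 1477 to 1554 CPM in controls and 757 to 974 CPM in mutants, with 4 of 5 lower. The sum of the support cell markers sv and nompA was 199 to 235 CPM and 106 to 114 CPM, with sv lower. nompA did not pass (log2 fold change 0.11) and passed as higher with scaling on ribosomal protein genes (0.35, adjusted p = 0.0212, edgeR). The sum of 5 muscle markers was 4.44 to 107 CPM and 112 to 257 CPM, with 2 of 5 higher. The 3 markers of Johnston's organ, the hearing organ of the antenna, summed to 5.26 to 7.62 CPM in controls and to more in every mutant sample (up to 18.0 CPM), with nompC higher (log2 fold change 1.40, adjusted p = 0.000648, edgeR). The sum of 3 male genes was 557 to 720 CPM and 228 to 410 CPM, with lncRNA:roX1, an RNA of male dosage compensation, lower (log2 fold change -1.08, adjusted p = 0.00566, edgeR). The male genes lncRNA:roX2 (log2 fold change 0.16) and msl-2 (0.18) did not pass. With scaling on ribosomal protein genes msl-2 passed as higher (0.42, adjusted p = 0.031, edgeR). The eye markers trp and eya were lower among 4 tested, while the eye sums overlapped at 140 to 150 CPM and 105 to 153 CPM. None of these markers but the eye gene gl was at 0 in a group. Their part in the results of the members was not tested.

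Levels of different genes were compared per exon length, as FPKM (CPM per 1000 bp of the union of exons). In control adult antennae the order was Snmp1 at 898 ± 7.10 FPKM, ATP8B at 58.7 ± 2.18, Snmp2 at 19.9 ± 1.00 and ppk25 at 2.98 ± 0.531 FPKM (SD, n = 3 each). In amos adult antennae Snmp1 at 373 ± 15.0 FPKM was followed by ppk25 at 35.0 ± 3.34, ATP8B at 15.1 ± 2.94 and Snmp2 at 8.05 ± 2.82 FPKM (SD, n = 3 each). No neighbours in either order overlapped between their samples. ppk25 thus went from the last place to the second place, with 2.31 times the FPKM of ATP8B. By FPKM over 15002 genes with an exon length, Snmp1 ranked 71 in control and 224 in amos adults, and ppk25 ranked 7248 and 2078.

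**Figure D4:**
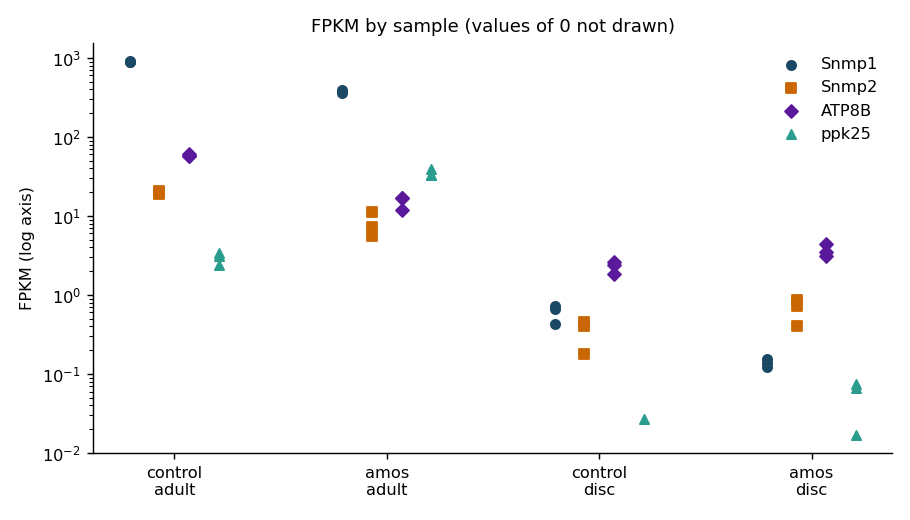
FPKM of the 4 members (vertical axis, logarithmic) in every sample of the 4 groups. The 2 control discs with no read of ppk25 are not drawn. Snmp1 is highest in adults of both genotypes, at 898 and 373 FPKM on average, and ATP8B is highest in discs, at 2.28 and 3.68 FPKM.

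In discs all 4 genes were low. ATP8B led with 2.28 ± 0.393 FPKM in controls and 3.68 ± 0.650 FPKM in mutants (SD, n = 3 each). Snmp1 at 0.611 ± 0.157 and Snmp2 at 0.349 ± 0.149 FPKM overlapped between their control samples, and in mutants Snmp2 at 0.666 ± 0.236 FPKM stood above Snmp1 at 0.138 ± 0.0149 FPKM without overlap (SD, n = 3 each). ppk25 had at most 4 reads in any disc library.

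The comparison of discs asked whether these genes already differed between the control and amos strains before the antenna forms. At an adjusted p under 0.05, 6.63% of 8909 genes passed as lower and 6.57% as higher. Of the 3 members with enough reads, Snmp1 passed as lower, ATP8B passed as higher and Snmp2 did not pass.

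Snmp1 had 46, 41 and 27 reads in control discs 1, 2 and 5 and 11, 14 and 15 reads in amos discs 1, 2 and 3. The groups did not overlap, at 1.39 ± 0.359 and 0.315 ± 0.0339 CPM (SD, n = 3 each). The log2 fold change was -2.11 (SE 0.37, adjusted p = 0.021, edgeR).

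These disc levels were 0.0681% of the adult level in controls and 0.0371% in mutants. For other antennal genes the share in control discs was 0.0664% for Orco, 0.0786% for lush, 0.0675% for the binding protein gene Obp83a, 0.0555% for Obp69a, 0.109% for Est-6 and 0.375% for the Ir coreceptor Ir76b. Of 118 genes at 1000 CPM or more in control adults, 16 had a smaller disc share than Snmp1. In amos discs the shares ranged from 0.0232% for Obp83a to 0.644% for Obp69a, with 0.0428% for Est-6 and 0.165% for Ir76b. Those of Orco (0.0351%) and lush (0.0353%) rested on 1 to 2 and 0 to 1 reads per amos disc. That of Obp83a rested on 0 to 1 reads and that of Obp69a on 3 to 7 reads per amos disc. Orco (log2 fold change -5.77) and lush (-7.19) were lower and Est-6 (2.39) higher in amos discs, as in adults. The part of RNA or reads from mature antennae in the disc counts of Snmp1 was not tested.

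Snmp2 and ATP8B kept larger shares of their adult level in discs, 1.76% and 3.87% in controls and 8.28% and 24.3% in mutants. ATP8B had 375, 473 and 525 reads in control discs (13.6, 17.7 and 19.2 CPM) and 1025, 1426 and 992 reads in amos discs (26.1, 32.4 and 23.0 CPM). The lowest mutant disc lay above the highest control disc, and the log2 fold change was 0.71 (SE 0.17, adjusted p = 0.0452, edgeR). Snmp2 had 32, 35 and 14 reads in control discs and 97, 51 and 88 reads in amos discs. Its CPM values overlapped, from 0.511 to 1.31 in controls and from 1.16 to 2.47 in mutants, and the test did not pass (log2 fold change 0.94, SE 0.48, adjusted p = 0.221, edgeR).

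ppk25 had 0, 0 and 1 read in control discs and 4, 4 and 1 reads in amos discs, too few to be tested. Over the summed libraries the ratio of mutant to control was 5.83, with a 95% exact binomial interval from 0.808 to 256, so no difference was detectable at this depth. The interval covers counting error only, not the spread between libraries.

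The disc calls were lost when most single libraries were left out. Snmp1 was no longer past the threshold without control disc 1 (log2 fold change -1.95, adjusted p = 0.0833), control disc 2 (-2.03, 0.0677), amos disc 1 (-2.02, 0.0873), amos disc 2 (-2.11, 0.0687) or amos disc 3 (-2.20, 0.0761). ATP8B lost its call without the same libraries, with log2 fold changes of 0.60, 0.76, 0.75, 0.57 and 0.81 and adjusted p-values of 0.106, 0.0893, 0.117, 0.105 and 0.0859, all from edgeR. ATP8B also missed the threshold with total count scaling (0.69, adjusted p = 0.0526) and with ribosomal protein scaling (0.63, adjusted p = 0.0731). Without control disc 5, the library with the high muscle markers, both calls held, at -2.31 (adjusted p = 0.0169) for Snmp1 and 0.82 (adjusted p = 0.0319) for ATP8B. The 5 muscle markers summed to 97.1 to 847 CPM in control discs and 51.4 to 68.5 CPM in amos discs, and the 5 fat body markers to 22.2 to 2099 CPM and 186 to 288 CPM with Yp1 at 0 in amos discs. None of those with enough reads passed the test. Of the eye markers, whose sums did not overlap between the disc groups, 2 of 5 tested were lower in amos discs, ey (log2 fold change -1.66, adjusted p = 0.0117) and toy (-1.03, adjusted p = 0.00328, both edgeR). The part of these markers in the disc results was not tested.

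Of the relatives of the members, 1 in each family passed the test in discs. Over all 8909 genes tested there, 6.57% passed as higher and 6.63% as lower, so these counts set no family apart. In the CD36 family 1 of 9 genes tested was higher (pes, log2 fold change 1.66), in the flippase family 1 of 4 was lower (CG33298, log2 fold change -0.45) and in the ppk family 1 of 5 was lower. That last gene, ppk13, had 662 to 2744 reads in control discs and 1 to 3 reads in amos discs (log2 fold change -9.98, SE 0.91, adjusted p = 0.00328, edgeR).

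The comparison of stages asked how far the 4 genes rise toward the adult antenna. All 4 passed as higher in adults in both genotypes, where 43.2% of 9770 genes passed in controls and 43.8% of 9985 genes in mutants. In controls the log2 fold change of adult against disc was 10.78 for Snmp1 (SE 0.22), 6.09 for Snmp2 (SE 0.30) and 4.96 for ATP8B (SE 0.15). In mutants it was 11.71 for Snmp1 (SE 0.13), 3.92 for Snmp2 (SE 0.36) and 2.38 for ATP8B (SE 0.19). For ppk25 the summed reads per library read were 333 times higher in control adults than in control discs, with a 95% exact binomial interval from 59.2 to 13175, and 677 times higher in amos adults than in amos discs (356 to 1481). These intervals too cover counting error only. The 1 read in control discs lay in control disc 5. Scaling on ribosomal protein genes raised the log2 fold change of the median gene by 1.44 in controls and 1.68 in mutants, and all 4 members still passed.

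The difference of the amos effect between the stages was tested in 1 fit over the 12 samples, in which 22.3% of 10319 genes passed in either direction. ATP8B differed most of the members, with an adult minus disc difference of -2.61 on the log2 scale (SE 0.25, adjusted p = 6.31e-05, edgeR), since it was lower in amos adults and higher in amos discs. Snmp2 differed by -2.20 (SE 0.48, adjusted p = 0.00822, edgeR). For Snmp1, lower at both stages, the difference was 0.89 (SE 0.23, adjusted p = 0.0185, edgeR), the decrease being smaller in adults. It was not past the threshold without control disc 1 (0.66, adjusted p = 0.0729), control disc 2 (0.75, 0.055), amos disc 1 (0.73, 0.0672) or amos disc 2 (0.81, 0.0565). The disc level of Snmp1 was 0.0681% of the adult level in controls and 0.0371% in mutants. Orco, at 0.0664% and 0.0351% (1 to 2 reads per amos disc), had a difference of 0.77 that did not pass. The part of RNA or reads from mature antennae in the Snmp1 difference was not tested. For ppk25 the difference was not resolved (1.38, SE 1.83, adjusted p = 0.688, edgeR), and it turned to -0.68 without control disc 5.

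**Figure D5:**
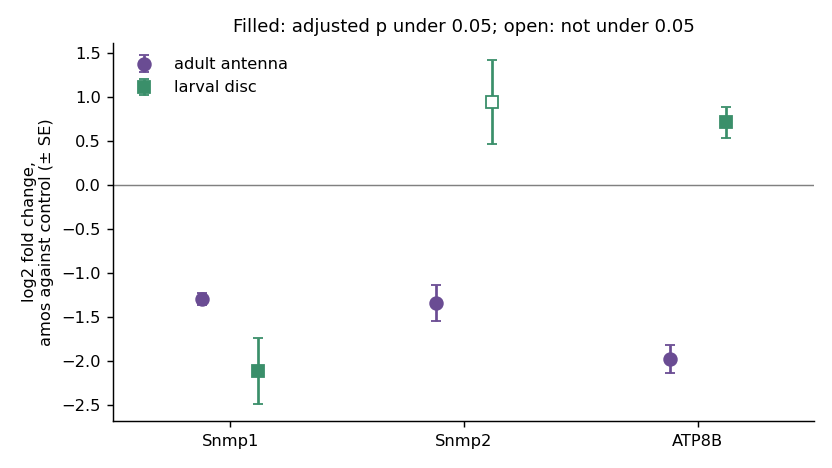
Log2 fold change of amos against control (vertical axis, ± SE) for Snmp1, Snmp2 and ATP8B in adult antennae (circles) and larval discs (squares). Filled points passed an adjusted p under 0.05 in edgeR's test and open points did not. Snmp1 is below 0 at both stages, and ATP8B is at -1.98 in adults and 0.71 in discs.

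Across all 12 samples, the log2 CPM values of Snmp1 and Snmp2 had a Pearson correlation of 0.97, Snmp2 and ATP8B of 0.963, and ATP8B and ppk25 of 0.675. The other pairs were at 0.936 (Snmp1 and ATP8B), 0.848 (Snmp1 and ppk25) and 0.777 (Snmp2 and ppk25). The order differed by Spearman's rank correlation, with Snmp2 and ATP8B highest (0.881) and Snmp1 and ppk25 lowest (0.536). These are descriptions over 12 libraries that share the contrast of stages. For each member the 5 genes with the highest correlation were taken from 10318 others. For Snmp1 these were DnaJ-H, CG14367, Acsx3, Antdh (antennal dehydrogenase) and btv (a dynein heavy chain of sensory cilia), all at 0.999, but 525 genes reached 0.99. For Snmp2 they were CG32278, CG31051, NijC, CG11550 and Gat, the GABA transporter, all at 0.993, and 10 genes reached 0.99. ATP8B had the fewest, with 2 genes at 0.99 or above, among its leading genes CG15522, CG14024, CG31637, CG34408 and l(2)34Fc (0.992 to 0.988). For ppk25 the leading genes were CG6553, CG7509, CG43095, CG8568 and Serinc (0.997 to 0.996), and CG7509 went from 5.80 CPM in control adults to 154 CPM in amos adults. None of the 5 leading genes of any member was also among its 5 leading genes by Spearman's rank correlation.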

How the data were processed

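RNA of 12 samples was sequenced from stranded mRNA libraries. The authors trimmed adapters, aligned the reads with TopHat2 and counted reads per gene with HTSeq, and deposited raw counts for 15682 genes and 5 lines naming no gene, without normalization. The submitters' processing notes name cutadapt 1.2.1, TopHat2 2.0.9, HTSeq 0.5.4p3 and the build BDGP5, while the study's methods name another trimmer, later versions and FlyBase release dmel_r6, so the build of the counts is uncertain. The lines naming no gene stayed out of library sizes and tests (not uniquely aligned reads 14.0% to 27.1%, ambiguous 0.779% to 0.893%, no feature 2.49% to 5.90% of each library's total). Symbols and exon lengths were matched for 15002 genes. Positions came from the annotation of BDGP6.54 and not from the count files. Sequences were not used here.

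Counts were tested with edgeR 4.0.16 in R 4.3.3 (quasi-likelihood test, TMM scaling, filterByExpr, Benjamini-Hochberg adjustment over all genes tested, threshold 0.05) in 4 fits of 2 groups and 1 interaction fit over all samples. The SE is the log2 fold change divided by the square root of the F value. Correlations used log2 of TMM CPM plus 0.5. Exact permutation tests and binomial intervals used scipy 1.17.1 in Python 3.11.15. On simulated counts with 200 changed genes the adult test recovered 91 of 100 genes changed by 1.5 on the log2 scale and 97 of 100 changed by 3, with 12 false calls among 9618 genes. For discs it recovered 88 and 97 of 100, with 10 false calls among 9029 genes. The changed genes were drawn from genes with more reads than Snmp1 and Snmp2 had in control discs. The disc recovery therefore does not cover the tests of these genes. The simulated spread came from control libraries of both stages and not from mutant libraries.

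Alternatives were DESeq2 1.42.0, scaling by 82 ribosomal protein genes or by total count, no filter, a mean of at least 10 counts, one fit over all samples, each library left out, the replicate number as a block, removal of a length trend in discs (loess, span 0.5), the longest transcript for FPKM, and Spearman's correlation. No 2 replicates agreed within sampling noise (chi-square per degree of freedom 6.73 to 143).

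The 4 members and all gene lists were chosen with earlier results of these data known. The rule for names took all members, Orco, Or67d, Or47b, Or88a, lush, Ir84a, ppk23, ppk29, ATP8A and Cdc50, up to 3 genes with the largest adult change past the threshold in the CD36, flippase and ppk families, and the 5 genes most alike to each member. Neighbouring genes, amos, fru, Est-6, Obp83a, ppk26, ppk15, ppk10, pes, CG33298, Or65c, Obp69a, Ir76b and the cell type markers were named after their values were seen. The names bez, ppk18 and chp of the lists were not matched. In adults 1 of 2 glia markers was lower and 0 of 3 fat body markers tested were called.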

Additional observations from a re-analysis of the deposited data

Results flagged for a closer look

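In 3 members the amos effect differed between adult antennae and larval discs in the interaction test of edgeR. Over all 10319 genes tested, 22.3% passed in either direction. The adult minus disc difference on the log2 scale was 0.89 for Snmp1, -2.20 for Snmp2 and -2.61 for ATP8B, each with 3 samples in each of the 4 groups. ATP8B was lower in all 3 amos adults and higher in all 3 amos discs than in every control of the stage. Snmp2 was lower in all 3 amos adults and overlapped in discs. Snmp1 lost its call in 4 fits with a single library left out. Its disc level rested on 27 to 46 reads per control disc and 11 to 15 per amos disc.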

How the results depend on the processing

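All 4 member calls in adults and in both comparisons of stages kept their direction and their side of the threshold under every alternative run. In discs the number of genes called, 1176, became 2159 with DESeq2 and 2060 in one fit over all 12 samples. It was 201 to 478 with any library but control disc 5 left out, and 1376 without that library. The number of members called in discs, 2, became 1 with total count scaling and 1 with ribosomal protein scaling, both through ATP8B (0.69 and 0.63), and 0 when any library but control disc 5 was left out. Over all left-out libraries Snmp1 ranged from -2.31 to -1.95 and ATP8B from 0.57 to 0.82. Over all alternatives the adjusted p ranged from 7.64e-05 to 0.0873 for Snmp1 and from 0.00375 to 0.117 for ATP8B, and the cause was not tested. The interaction of Snmp1 was 0.66 to 0.81 in the 4 fits that lost its call and up to 1.00 without other libraries, with adjusted p from 0.00248 to 0.0729 over all its alternatives. The interaction of ppk25 ranged up to 1.77 with single libraries left out and reversed to -0.68 without control disc 5, which held the only read in control discs. With the longest transcript in place of the union of exons, ATP8B in control adults was at 64.7 FPKM. Scaling on ribosomal protein genes raised the log2 fold change of the median gene by 0.25 in adults and lowered it by 0.09 in discs. The disc groups have the numbers 1 and 2 in common, and amos adults and discs the numbers 1, 2 and 3. The deviations of same-numbered samples correlated at -0.142 and -0.208 in discs and at 0.175, 0.0898 and 0.0419 across stages, so the numbers were not taken as pairs. With the replicate block, 1479 genes were called in discs, with Snmp1 at -2.40 and ATP8B at 0.91, and 8574 genes between amos stages (8546 without it), and no member call changed. Depth limits ppk25 in discs, where 10 reads lie in 6 libraries.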
